A study of Mus musculus with 6 samples.

Results

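Expression of 10 forkhead genes was examined in laser-dissected epithelium of the gonadal primordium of E10.5 mice (E, days of embryonic development), in wild-type fetuses (+/+) and in fetuses without the homeobox gene Emx2 (Emx2 KO, -/-). The genes were Foxc1, Foxc2, Foxd1, Foxd2, Foxf1, Foxf2, Foxp1, Foxp2, Foxp4 and Foxo1, and every probe set whose annotated symbol was exactly one of these names was included, 31 of the 45101 probe sets of the array, for 10 of 18193 genes that a single symbol names. The genes were chosen by a list made with the KO against wild-type intensities of these same arrays known. Their fold changes and calls are therefore a description, and the adjusted p-values, taken over all tested probe sets, are not independent evidence. Each group had 3 pools, and each pool joined tissue from 3 fetuses. Frozen unfixed fetuses had been sectioned at 30 µm, GATA4 staining of some sections had located the primordium, and its epithelium had been cut out. From each pool 15 ng of total RNA was amplified in a two-cycle protocol, labelled with biotin and hybridised to an array of its own. The labels give neither the strain, the sex or litter of the fetuses, nor which part of Emx2 was deleted. The p-values set the difference between the groups against the spread between pools.

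Forkhead factors bind DNA through a winged-helix domain. In the embryo Foxc1 and Foxc2 act in paraxial and intermediate mesoderm, in somites and in blood vessels, Foxd1 marks the stromal progenitors of the kidney, and Foxf1 and Foxf2 are hedgehog-responsive factors of lateral plate mesenchyme. Foxp1, Foxp2 and Foxp4 are repressors that bind DNA as dimers with each other, and Foxo1 is held outside the nucleus when insulin signalling through Akt is active. The coelomic epithelium that forms the gonad is itself of mesodermal origin. Emx2 encodes a homeodomain factor needed for the urogenital system.

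The sequences before the starts of Foxc1 and Foxp1 are shown first, because both genes rose in the KO pools and both are in the promoter table, which had no entry for Foxp2, the other gene that rose. The table, from RefSeq on GRCm38.p6, held 7 of the 10 genes, with 9 starts. The 250 bases upstream of each start were searched on both strands for the core that forkhead factors bind, TGTTTA, and for a core that many homeodomain factors bind, TAATTA, motifs that do not overlap in the sequences shown. Capitals mark these motifs, TAAACA being the forkhead core on the other strand. The Foxc1 sequence is chr13:31806396-31806645 on the plus strand. The 3 starts of Foxp1 are on the minus strand, and their upstream sequences are chr6:99028299-99028548 (start A), chr6:99266516-99266765 (start B) and chr6:99520994-99521243 (start C).
Foxc1: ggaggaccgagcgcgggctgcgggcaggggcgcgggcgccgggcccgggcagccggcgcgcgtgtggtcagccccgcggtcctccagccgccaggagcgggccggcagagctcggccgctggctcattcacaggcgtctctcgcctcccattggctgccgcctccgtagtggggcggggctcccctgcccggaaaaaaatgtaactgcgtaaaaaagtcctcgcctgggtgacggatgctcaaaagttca
Foxp1 start A: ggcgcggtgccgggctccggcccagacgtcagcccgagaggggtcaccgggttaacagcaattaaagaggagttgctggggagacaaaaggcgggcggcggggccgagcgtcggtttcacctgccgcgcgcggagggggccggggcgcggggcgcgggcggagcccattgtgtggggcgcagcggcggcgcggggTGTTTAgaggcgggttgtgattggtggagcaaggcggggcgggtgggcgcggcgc
Foxp1 start B: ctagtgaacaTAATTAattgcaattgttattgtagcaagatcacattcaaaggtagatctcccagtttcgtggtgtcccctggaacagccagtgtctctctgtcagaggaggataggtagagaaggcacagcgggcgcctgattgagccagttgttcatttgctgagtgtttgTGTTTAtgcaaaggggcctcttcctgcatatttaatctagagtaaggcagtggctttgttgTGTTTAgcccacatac
Foxp1 start C: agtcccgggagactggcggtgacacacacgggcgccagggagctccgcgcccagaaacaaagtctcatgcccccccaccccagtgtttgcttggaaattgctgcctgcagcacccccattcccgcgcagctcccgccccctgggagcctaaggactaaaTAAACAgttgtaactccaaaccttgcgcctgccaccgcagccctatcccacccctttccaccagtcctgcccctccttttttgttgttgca
The Foxc1 sequence held neither motif, and 70.8% of its bases were G or C. Each Foxp1 start had the forkhead core, start B in 2 places, and start B alone also had the homeodomain core. Over the 32851 upstream sequences of the same length in the table, 12.0% held the forkhead core and 4.84% the homeodomain core. The sequence at start B differed in composition, with 45.2% G or C and 3 CpG dinucleotides against 74.0% and 34 at start A and 60.8% and 11 at start C. The median of all upstream sequences was 52.4% G or C. The other matched genes, Foxd1, Foxd2, Foxf2, Foxo1 and Foxp4, had neither motif in this window. These matches are letters in a sequence, not measured binding, and it is not known here which start the Foxp1 probe sets read.

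Values below are intensities after each array was brought to a common trimmed mean. Values under the floor of 7.99 were set to it for testing, and probe sets whose mean lay in the lowest 40%, under 26.4, were not tested. Pools correlated more closely within a group (r 0.977 to 0.983 over tested probe sets) than between groups (0.964 to 0.972). The Emx2 probe set read 1716 ± 409 in wild-type and 1634 ± 138 in KO pools (SD, n = 3), and since its position relative to the deletion is not given, it leaves the genotype labels unchecked. The antisense transcript Emx2os, which overlaps the Emx2 locus, fell by 2.30 on the log2 scale (limma, adjusted p = 0.00015). Xist, the RNA of the inactive X chromosome, read 34.6 in wild-type and 9512 in KO pools on 1 of its probe sets, and the Y-linked genes Eif2s3y, Kdm5d and Uty each had a probe set that fell by 2.13 or more. The pools therefore differed in markers of fetal sex as well as in genotype, and for every result below these cannot be told apart.

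Of the 31 forkhead probe sets 26 were bright enough to be tested, and they stand for 9 of the 10 genes. A total of 14 probe sets rose in KO pools, 0 fell and 12 did not pass. The 14 belong to 3 genes, Foxc1 (2 of 2 probe sets), Foxp1 (7 of 8) and Foxp2 (5 of 6). Of the 26, 19 had an unadjusted p under 0.05, among them Foxf1 1434939_at as the only lower value. Over all tested probe sets 2.75% rose and 1.93% fell, and an unadjusted p under 0.05 was reached by 9.86% with higher and 7.45% with lower KO values. The KO values lay above every wild-type value in 19 of the 26 and below in 1, against 12% and 10% of all tested probe sets. By the brightest probe set of each gene, 3 of the 9 tested genes rose and 0 fell, and over all 12315 genes the shares were 2.93% and 2.48%. Since these contrasts chose the genes, nothing is read from the comparison of shares. Without the filter on dim probe sets, the same test called 3 of the 14, namely Foxc1 1419486_at (adjusted p = 0.0302), Foxp1 1421140_a_at (0.0263) and Foxp1 1435221_at (0.0474), and none for Foxp2. A bulk pool does not show whether a higher value comes from more cells of a type or from more RNA per cell.

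**Figure D1:**
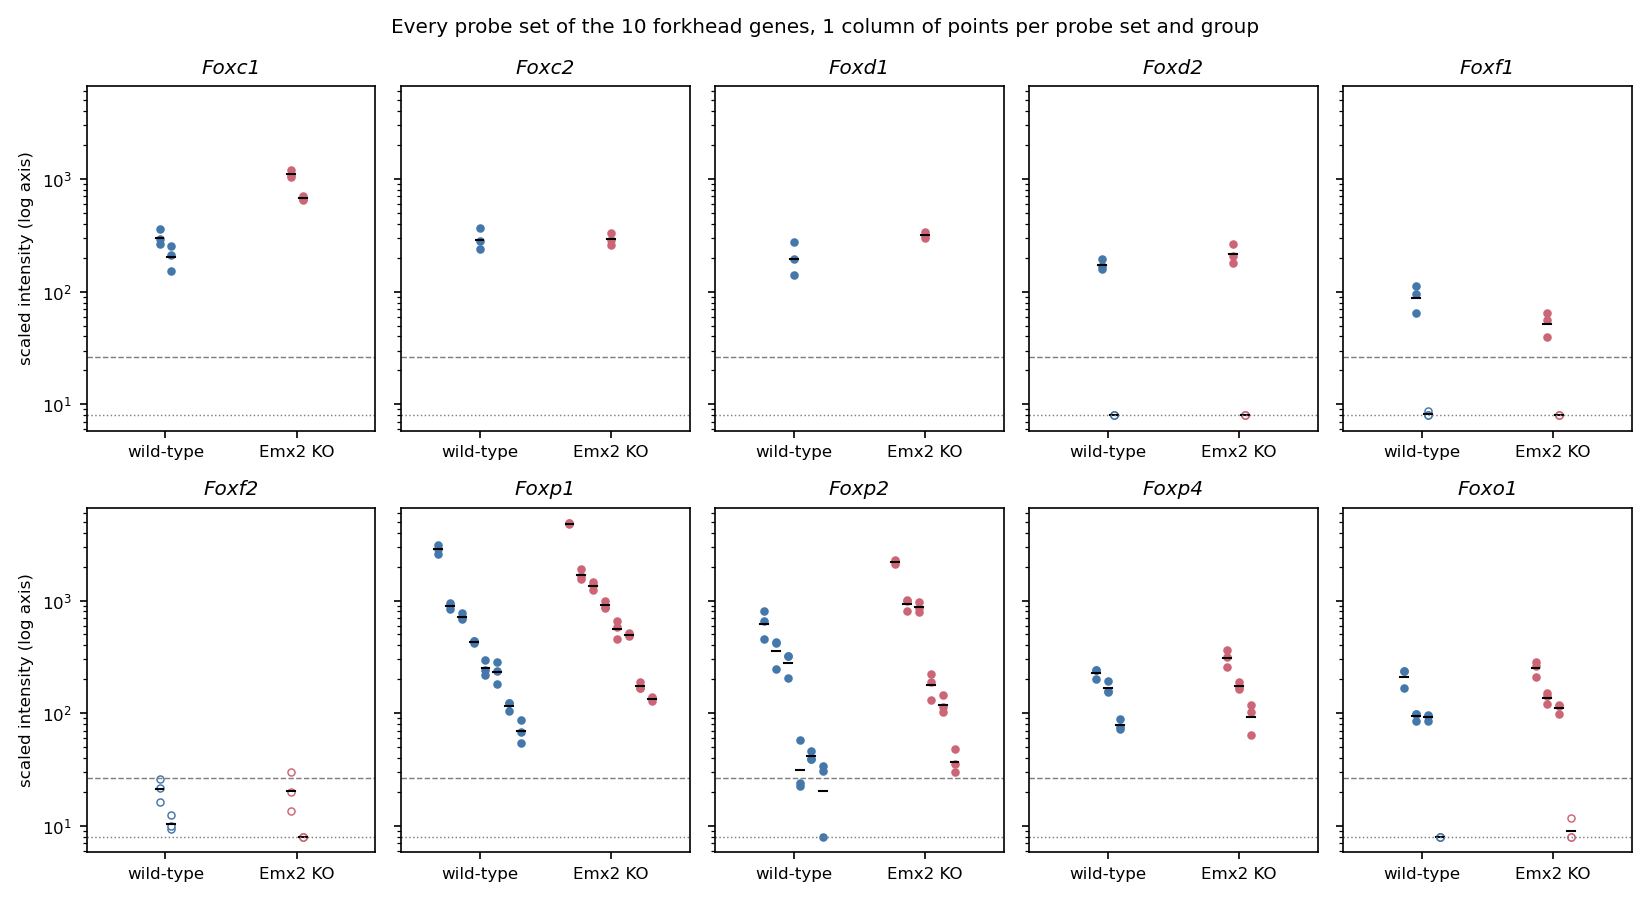
Scaled intensity (log axis) of all 31 probe sets, with 1 panel per gene, 1 column of points per probe set and group, and 1 point per pool. Short bars are means of log2 values, hollow points are probe sets that were not tested, the dashed line is the limit of 26.4 and the dotted line the floor of 7.99. The KO points of Foxc1, Foxp1 and most Foxp2 probe sets lie above their wild-type points, Foxc2 points overlap, and Foxf2 lies near or under the limit.

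Foxc1, a regulator of somite and vessel formation, was 3.65-fold higher in KO pools. Its brighter probe set, 1419486_at, read 266.8, 290.8 and 357.0 in wild-type pools 1, 2 and 3 and 1076, 1035 and 1214 in KO pools 1, 2 and 3. The highest wild-type pool was thus far under the lowest KO pool. The means were 305 ± 46.7 and 1108 ± 93.8 (SD, n = 3), a log2 difference of 1.87 (SE 0.14, limma, adjusted p = 1.46e-05). A dimmer probe set, 1419485_at, read 212, 152 and 253 in wild-type pools, and KO pools gave 652, 669 and 710, a difference of 1.75 (SE 0.18, adjusted p = 0.000111). Both probe sets have the same source sequence, so they are not counted as independent readings. The difference for 1419486_at lay between 1.78 and 1.99 in every alternative analysis run, and it passed in all 16.

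Foxc2, the close relative of Foxc1 with overlapping roles in the same mesoderm, showed no such difference. Its only probe set, 1416693_at, read 364, 238 and 282 in wild-type pools and 260, 331 and 288 in KO pools. The groups overlapped, the log2 difference was 0.01 and its 95% confidence interval ran from -0.38 to 0.39 (limma, adjusted p = 0.989), which leaves out a change of the size seen for Foxc1. The sign of this near-zero value turned in 6 of 16 alternatives. Within each array, the log2 signal of Foxc1 relative to Foxc2 was higher by 1.86 in KO than in wild-type pools (SD over pools 0.44 in wild-type and 0.24 in KO), and the groups did not overlap. This within-array measure does not depend on the scaling of the arrays, and the difference between the genes' changes was not tested.

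Foxd1, the marker of renal stromal progenitors, did not pass. Probe set 1418876_at read 278, 142 and 195 in wild-type pools, and KO pools gave 340, 302 and 312. Every KO pool was above every wild-type pool, but the wild-type pools spread over a wide range, with pool 1 close to the KO values. The log2 difference was 0.69 (95% confidence interval 0.23 to 1.15, limma, adjusted p = 0.0967). Without wild-type pool 1 it was 0.94 with an adjusted p of 0.0245, and in the other 5 analyses that left out a pool it did not pass. Foxd2, a related factor of kidney and somite mesoderm, read 168, 158 and 197 in wild-type pools and 209, 263 and 179 in KO pools on 1442315_at. The groups overlapped, with a difference of 0.30 (interval -0.10 to 0.71, adjusted p = 0.448). The other Foxd2 probe set, 1450289_at, was under the floor in all 6 pools.

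Foxf1, a hedgehog-responsive factor of splanchnic mesenchyme, was the only tested gene of the 10 with lower values in every KO pool. Probe set 1434939_at read 95.7, 65.0 and 112 in wild-type pools, and KO pools gave 64.7, 39.3 and 55.5. Wild-type pool 2 and KO pool 1 were nearly level, so the groups were separated by a very small gap. The log2 difference of -0.77 (interval -1.37 to -0.17) had an adjusted p of 0.161 by limma and did not pass, and with each pool left out it ran from -0.99 to -0.56 without passing. The second Foxf1 probe set, 1423013_at, was under the floor in 5 of 6 pools.

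Foxf2, the partner of Foxf1 in gut and palate mesenchyme, gave no testable signal. Probe set 1418220_at read 26.2, 21.6 and 16.4 in wild-type pools and 13.6, 20.03 and 30.2 in KO pools, overlapping around the dim limit. Probe set 1447562_at was at most 12.4 in any pool and under the floor in the 3 KO pools. By the gene order in RefSeq, Foxf2 lies between Foxq1 and Foxc1 on chromosome 13, and Foxf1, Mthfsd, Foxc2 and Foxl1 follow each other on chromosome 8. Foxc1 rose beside a neighbour at the limit of measurement, and its other forkhead neighbour in this cluster, Foxq1, read 23.6 ± 7.89 in wild-type and 21.9 ± 4.83 in KO pools and was not tested. In the chromosome 8 cluster neither Foxc2 nor Foxf1 passed and Foxl1 was under the floor in all 6 pools.

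Foxp1, a repressor that pairs with its relatives and is active in many mesodermal lineages, rose on 7 of its 8 probe sets, by 0.75 to 1.17 on the log2 scale. The brightest, 1435222_at, read 2589, 2889 and 3122 in wild-type pools, and KO pools gave 4834, 4742 and 4865, a 1.68-fold difference (log2 0.75, SE 0.09, limma, adjusted p = 0.000303). KO pools lay close together and well above the wild-type pools. Probe set 1421140_a_at, from another source sequence, read 440, 417 and 436 in wild-type pools and 874, 985 and 867 in KO pools, or 431 ± 12.3 against 909 ± 66.4 (log2 1.07, SE 0.12, adjusted p = 0.000194). Here the spread within each group was small beside the gap between groups.

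The next 4 Foxp1 probe sets gave like values. 1455242_at and 1435221_at, which share their source sequence with 1435222_at, rose by 0.92 and 0.91. 1421142_s_at, which shares its source with 1421140_a_at, rose by 1.11, and 1438802_at, from a source of its own, by 1.17. The seventh, 1421141_a_at, read 54.5, 68.2 and 87.7 in wild-type pools, and KO pools gave 138, 137 and 128, with an adjusted p of 0.0241. That call held in 1 of the 6 analyses without a pool, the one without wild-type pool 3 (adjusted p = 0.00949), and in the other 5 the adjusted p ran from 0.0573 to 0.0944. The eighth, 1443258_at, read 124, 122 and 104 in wild-type pools and 167, 189 and 167 in KO pools. Its groups did not overlap either, but with a difference of 0.58 and an adjusted p of 0.0879 it did not pass. The 8 probe sets came from 4 source sequences, and 3 of these had a probe set that passed. Averaged over its probe sets, Foxp1 rose by 0.93 (SE 0.11, limma, adjusted p = 0.000382).

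Foxp2, best known for its role in speech-related brain circuits and also expressed in developing lung and gut, rose on 5 of its 6 probe sets. The brightest, 1438231_at, read 816, 453 and 656 in wild-type pools, and KO pools gave 2093, 2233 and 2302. KO pools were close to each other, whereas wild-type pool 2 was the lowest of its group. The means of 642 ± 182 and 2209 ± 107 (SD, n = 3) correspond to a 3.54-fold difference (log2 1.82, SE 0.17, limma, adjusted p = 6.95e-05). The largest log2 difference of the 26 tested probe sets was on 1441365_at, which read 23.9, 22.5 and 57.3 in wild-type pools and 189, 223 and 132 in KO pools (log2 2.50, SE 0.34, adjusted p = 0.001). Since 2 of its wild-type values lay under the dim limit, the size of this difference is less firm than that of 1438231_at.

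The other Foxp2 probe sets that passed were 1438232_at, which shares its source sequence with 1438231_at (log2 1.65, SE 0.18), 1440108_at (1.40, SE 0.19) and 1458191_at (1.51, SE 0.23). The sixth, 1422014_at, read at most 47.8 in any pool and was under the floor in wild-type pool 2. Its difference of 0.87 had an SE of 0.50 and did not pass (limma, adjusted p = 0.411). The 5 calls came from 4 of the gene's 5 source sequences. They held when each pool was left out in turn, and all 5 were lost without the filter on dim probe sets, where their adjusted p ran from 0.0715 to 0.139.

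Foxp4, the third of these repressors in the set, did not pass on any of its 3 probe sets. The brightest, 1429719_at, read 241, 243 and 203 in wild-type pools, and KO pools gave 257, 317 and 362. The KO values were all higher, by a log2 difference of 0.44 (95% confidence interval 0.07 to 0.80, limma, adjusted p = 0.191). The dimmer 1431437_at and 1431088_at overlapped between groups, with differences of 0.08 and 0.23. Relative to Foxp4 within the same array, Foxp2 was higher in KO pools by 1.39, with no overlap of the groups, and Foxp1 by 0.31, with overlap. Foxp2 relative to Foxp1 was higher by 1.07 (SD 0.50 in wild-type and 0.07 in KO), again with no overlap, and no test was made of these pairs.

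Foxo1, the insulin-regulated member, did not pass on any of its 3 tested probe sets, all from the same source sequence. 1416982_at read 85.8, 98.2 and 99.2 in wild-type pools and 141, 121 and 151 in KO pools, which did not overlap (log2 0.54, SE 0.19, limma, adjusted p = 0.149). 1416981_at was also without overlap, though by a narrow margin, since its highest wild-type pool read 95.4 and its lowest KO pool 98.1 (log2 0.26, adjusted p = 0.548). The brightest, 1416983_s_at, overlapped between groups, with a difference of 0.24. The last, 1456529_at, was under the floor in 5 pools. A shared direction on 3 probe sets from a single source is thus not counted as 3 independent observations.

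**Figure D2:**
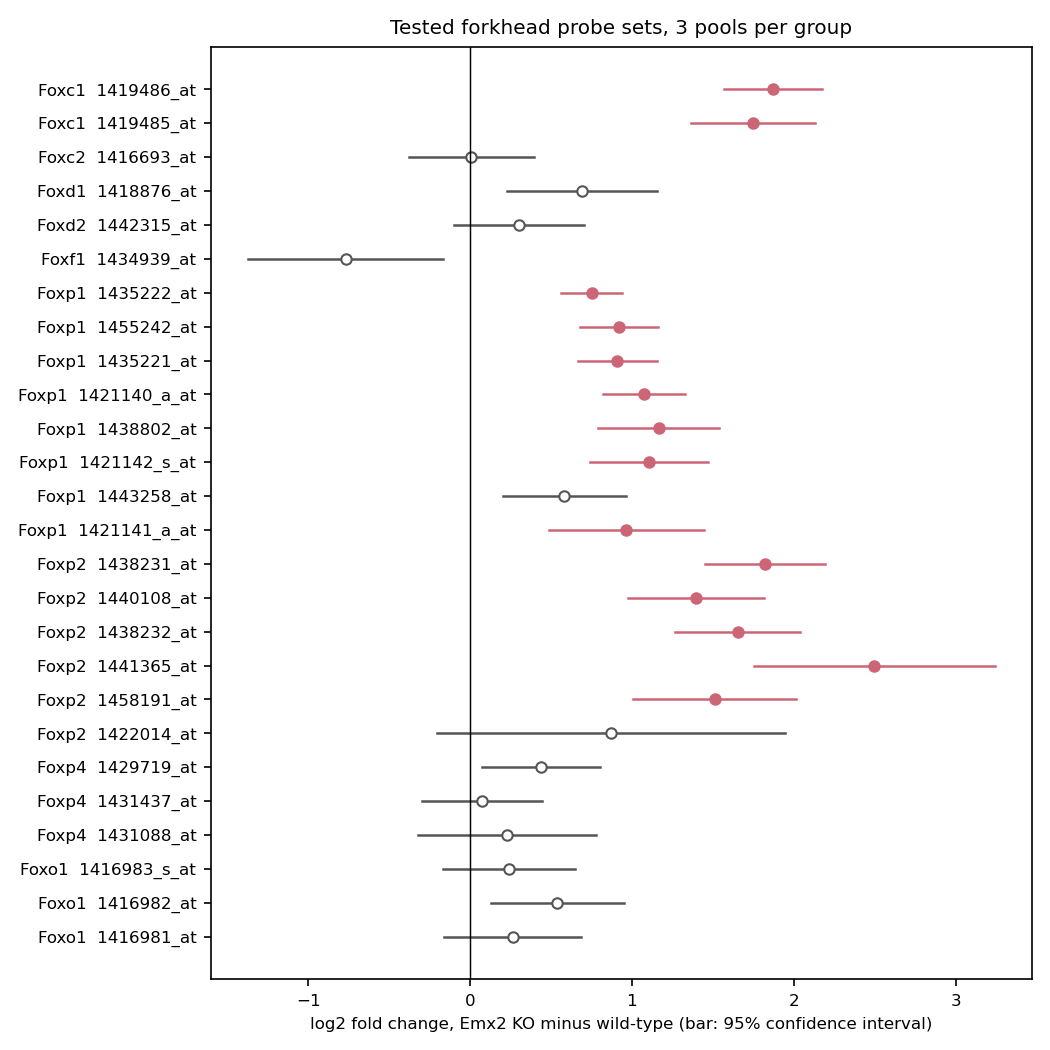
Log2 fold change, KO minus wild-type, of the 26 tested forkhead probe sets, with 95% confidence intervals from limma over 3 pools per group. Filled red points passed at an adjusted p of 0.05 and hollow points did not. The filled points belong to Foxc1, Foxp1 and Foxp2 alone, the Foxf1 interval lies under 0 and the Foxc2 interval is centred near 0.

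**Figure D3:**
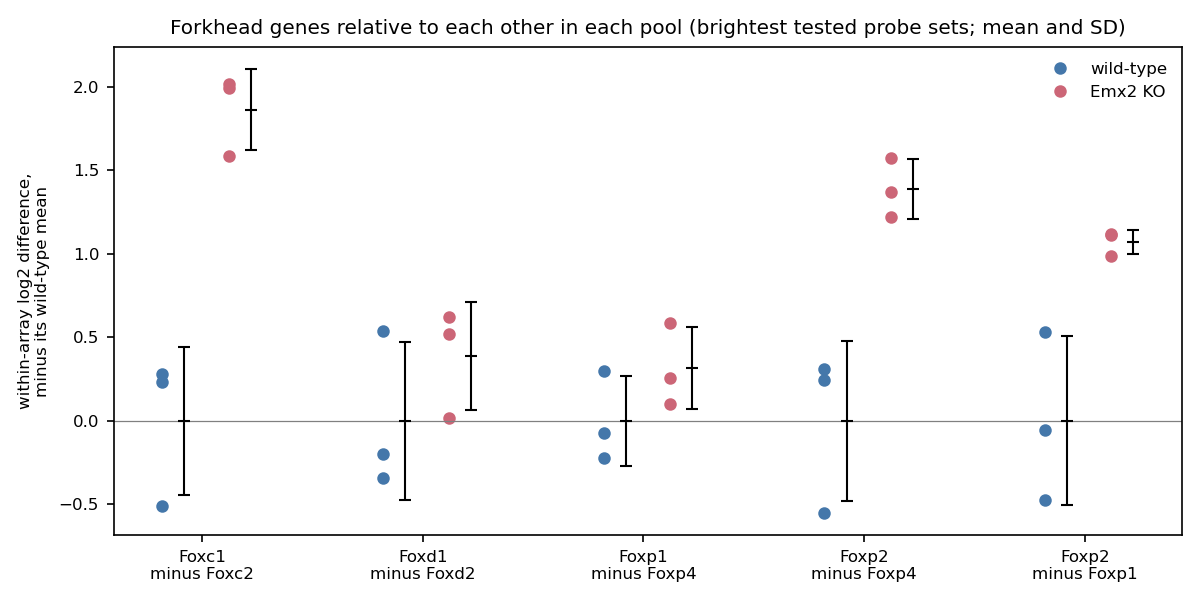
Log2 intensity of one forkhead gene minus that of another in the same array, with the wild-type mean of each pair set to 0. Points are pools, and bars give the mean and SD of 3 pools. KO pools lie above wild-type pools for Foxc1 relative to Foxc2 and for Foxp2 relative to Foxp4 and to Foxp1, and they overlap for Foxd1 relative to Foxd2 and Foxp1 relative to Foxp4.

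The remaining forkhead family was read from the same fit. Of 34 further forkhead genes, 27 were on the array with 51 probe sets, and 24 probe sets of 11 genes were bright enough to test. By brightest probe set, 1 of the 11 rose (Foxn3) and 0 fell by limma (unadjusted p under 0.05 in 2 and 1), and the median log2 difference was 0.11, against -0.01 over all tested genes. Foxn3, a repressor linked to cell-cycle checkpoints, read 697, 820 and 806 in wild-type pools, and KO pools gave 1296, 1301 and 1056 on 1434002_at (log2 0.65, SE 0.12, limma, adjusted p = 0.00803). That call held with each pool left out. It was lost with values as deposited, without the filter on dim probe sets and without the intensity trend. The Foxn3 probe sets 1436925_at and 1438255_at rose by 0.73 and 0.70. The last of them, 1453094_at, pointed the other way, at 67.4 ± 6.96 in wild-type and 42.4 ± 9.95 in KO pools, without passing (adjusted p = 0.191). Foxn4, with the next smallest p of the list, did not pass (1425254_at, log2 1.52, SE 0.54, limma, adjusted p = 0.151). It read 14.9, 7.08 and 38.0 in wild-type pools and 35.7, 89.2 and 33.4 in KO pools. These groups overlapped, and wild-type pool 2 was under the floor.

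Foxo3, a relative of Foxo1, had KO values under all wild-type values on both of its tested probe sets. 1434831_a_at read 921, 827 and 758 in wild-type pools and 647, 653 and 755 in KO pools, and 1434832_at read 322 ± 29.9 and 247 ± 5.43. Neither passed (limma, adjusted p = 0.251 and 0.182). Foxl2, which later acts in ovarian granulosa cells, read 84.4 ± 6.93 in wild-type and 90.9 ± 3.27 in KO pools. Foxm1, a factor of dividing cells, differed by 0.07 on its brightest probe set (interval -0.43 to 0.57).

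**Figure D4:**
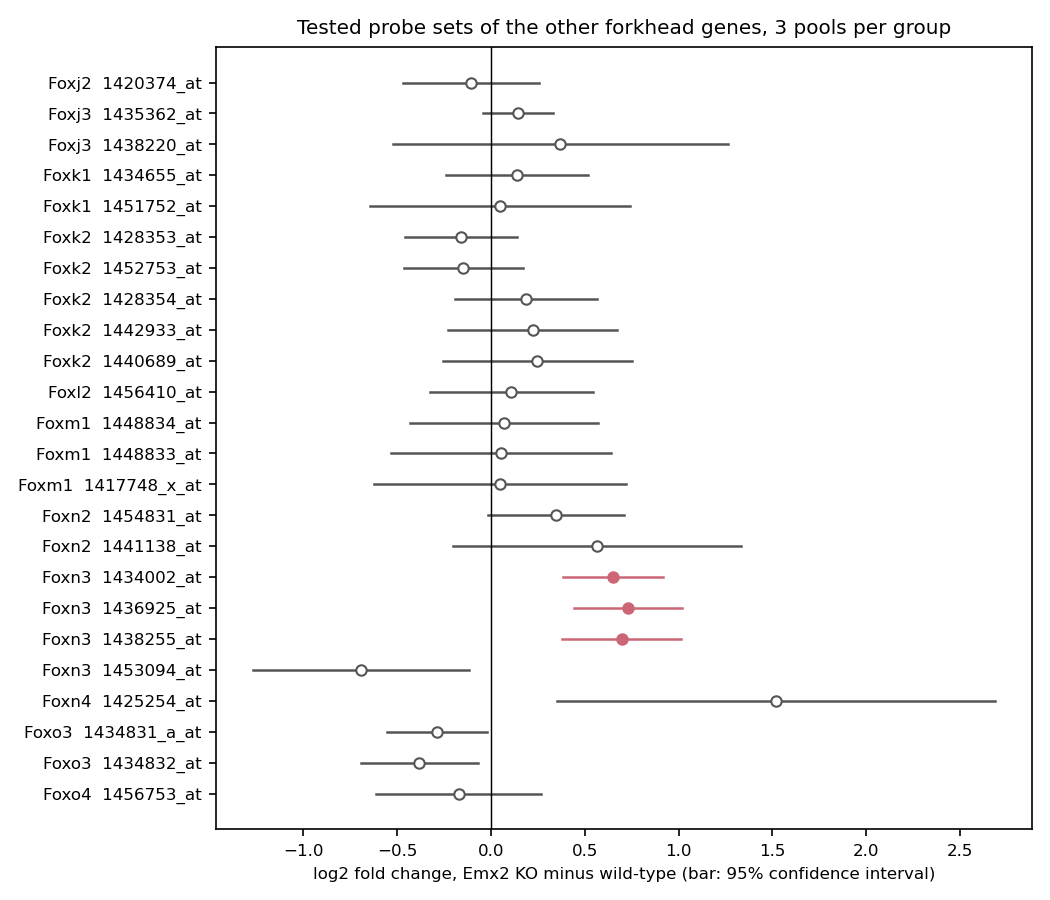
Log2 fold change, KO minus wild-type, of the 24 tested probe sets of the other forkhead genes, with 95% confidence intervals from limma over 3 pools per group. Filled red points passed at an adjusted p of 0.05. These are the 3 brighter probe sets of Foxn3. Its dimmest probe set and both Foxo3 probe sets lie under 0, as do those of Foxj2, Foxo4 and some of Foxk2.

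Genes that act upstream or downstream of these factors were described by lists, each gene standing by its brightest probe set. Over all 12315 tested genes 2.93% rose and 2.48% fell, and 9.02% and 9.15% had an unadjusted p under 0.05 with higher and lower KO values. The lists were chosen with earlier results of these data known. These shares are therefore given as description, and nothing is read from comparing a list with them. In the hedgehog pathway, which drives Foxf genes, 2 of 11 tested genes rose and 0 fell by limma (unadjusted p under 0.05 in 3 and 0), with a median of 0.04. They were the transcription factors Gli3, at 1868 ± 283 and 2665 ± 197 (log2 0.52, limma, adjusted p = 0.019), and Gli2, at 1096 ± 37.4 and 1550 ± 220 (log2 0.49, adjusted p = 0.0287). The pathway's standard response genes did not pass, Ptch1 differing by -0.20 (adjusted p = 0.436) and Gli1 by 0.20 (adjusted p = 0.683). Both Gli calls were fragile. Leaving out wild-type pool 1, wild-type pool 2 or KO pool 2 left 0 of the 11, leaving out KO pool 1 or KO pool 3 left 1, and the adjusted p reached 0.0912 for Gli3 and 0.142 for Gli2.

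Among textbook target genes of FoxO factors 2 of 21 rose and 0 fell by limma (unadjusted p under 0.05 in 7 and 2), with a median of -0.02. Klf6, a zinc-finger factor, rose by 0.72 (SE 0.14, limma, adjusted p = 0.0106) and Rictor, a subunit of the second mTOR complex, by 0.57 (SE 0.13, adjusted p = 0.0246). Without KO pool 2 or without KO pool 3 neither passed, and without wild-type pool 1 or wild-type pool 3 only Klf6 rose. Without wild-type pool 2 a gene of the list fell, 1 of 21. In the insulin and Akt list, whose products set where FoxO proteins reside, 2 of 14 rose and 0 fell by limma (unadjusted p under 0.05 in 3 and 2), with a median of -0.01. Irs4, an adaptor of insulin and growth-factor receptors, went from 51.1, 15.8 and 24.1 in wild-type to 336, 339 and 364 in KO pools (log2 3.69, SE 0.34, adjusted p = 6.07e-05). Of its wild-type values 2 were under the dim limit, so its fold is uncertain while the separation of the groups is wide. Irs1, a relative of Irs4, rose by 0.50 (adjusted p = 0.0343), a call that held only without wild-type pool 3 among the analyses without a pool, the others reaching 0.134.

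None of the 10 tested co-repressor partners of Foxp proteins passed by limma, and the median was 0.00. The smallest p-values were those of Gatad2b, a NuRD subunit (log2 0.28, adjusted p = 0.307), and of the deacetylase Hdac1 (log2 -0.16, adjusted p = 0.428), and 0 of the 10 had an unadjusted p under 0.05.

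Genes of paraxial and intermediate mesoderm that are linked to Foxc factors moved in both directions, with 2 of 11 higher, 2 lower and a median of -0.04. Pax3, a factor of somites, read 30.8, 30.3 and 42.2 in wild-type pools, and KO pools gave 87.0, 232 and 86.3, the KO mean being raised by pool 2 (log2 1.82, SE 0.36, limma, adjusted p = 0.0099). Osr1, an early intermediate mesoderm factor, rose by 1.29 (SE 0.21, adjusted p = 0.00295). Lhx1 and Pax8, which mark the nephric lineage, fell. Pax8 fell by 1.36 (SE 0.29), with KO pool 3 under the dim limit. Lhx1 read 75.8, 45.5 and 59.1 in wild-type pools and was under the limit in all 3 KO pools, so it was tested only through its wild-type values and the size of its fall is uncertain. The Lhx1 call was lost without wild-type pool 1 (adjusted p = 0.0695), and that of Pax8 without wild-type pool 1, wild-type pool 2 or KO pool 3 (up to 0.0652).

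Of the stroma genes linked to Foxd1, 5 of 15 rose and 0 fell by limma (unadjusted p under 0.05 in 6 and 1), with a median of 0.22, against the 2.93% and 2.48% of all genes. Without wild-type pool 2, 1 gene of the list fell. Tbx18, a factor of urogenital mesenchyme, read 578, 341 and 635 in wild-type pools and 5133, 4465 and 5093 in KO pools (log2 3.29, SE 0.18, limma, adjusted p = 9.95e-07). Pdgfrb, a growth-factor receptor of stromal cells, rose by 0.85, the matrix protein gene Dcn by 0.80 and the mesenchymal factor Tcf21 by 0.71. Of the endothelial genes linked to Foxc, Foxf and Foxo factors, 6 of 18 rose and 1 fell, with a median of 0.56, against the same shares of all genes. The angiopoietin receptor Tek rose by 1.29, the growth-factor receptor Flt4 by 0.86 and the tight-junction gene Cldn5 by 0.85. Emcn, a surface protein of vessels, also rose, but all 3 of its wild-type values lay under the dim limit, so it was tested only through its KO values and the size of its rise is uncertain. The gene that fell was Hey1, a Notch-responsive repressor, by 0.81 (SE 0.16, adjusted p = 0.00913), a call lost without wild-type pool 1 (0.0568). Leaving out wild-type pool 1, wild-type pool 3, KO pool 1 or KO pool 2 gave 3 rises in place of 6. Cldn5 and Emcn each held in 2 of the 6 analyses without a pool and Flt4 in 1, with adjusted p up to 0.177.

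Markers of other cell types differed between the groups in some lists and not in others. Of the 11 ridge mesenchyme markers 8 rose and 0 fell by limma (unadjusted p under 0.05 in 9 and 1), and their summed intensity was 15122 to 16283 in wild-type and 20364 to 21891 in KO pools. Twist1, a defining mesenchymal factor, rose by 1.75 (SE 0.13, limma, adjusted p = 1.25e-05), and Postn by 1.10. Dlk1 and Pdgfra had lower KO values, with differences of -0.45 and -0.11, and did not pass (limma, adjusted p = 0.0651 and 0.617). Without KO pool 1 or KO pool 2 the count of rises was 5, and without KO pool 3, 6 markers rose and 1 fell. Without the filter on dim probe sets 2 rose. Of the 11 endothelial markers 9 were tested and 4 rose, Emcn with its dim wild-type values among them, and the sums were 984 to 1259 and 1615 to 1899. All 9 are also in the endothelial list above, so their rises are not separate evidence. Pdgfrb, Tcf21, Nr2f2, Osr1, Pax8, Lhx1 and Pax3, which passed as markers, were likewise already counted in the lists above. Pecam1 and Tie1, which define endothelium, were too dim to test, and the count fell to 1 without KO pool 1 and to 2 in each of the other analyses without a pool.

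Of the 11 epithelial markers 1 rose and 3 fell, with sums of 24500 to 28237 in wild-type and 21880 to 24331 in KO pools. Among them Nr5a1, which defines the gonadal primordium, fell by 1.22 but was well above the dim limit in all pools. Krt8 and Aldh1a1 also fell (log2 -0.59 and -1.26), and Krt19 rose (1.02). Gata4 (0.62) and Wt1 (-0.40) did not pass (limma, adjusted p = 0.0501 and 0.0715). Lhx9, Podxl and Emx2 differed by 0.02, -0.01 and -0.05. The log2 difference was above 0 in 4 of the 11. The 3 tested nephric duct markers included 2 that fell, Pax8 and Lhx1, the latter with all KO values under the dim limit, and the list's sums were 258 to 301 and 89.9 to 140. Of the somite markers 2 of 7 were tested and 1, Pax3, rose, with sums of 192 to 233 and 254 to 387, while Pax1, Pax9, Meox1, Meox2 and Myf5 were too dim. Of 4 tested blood markers 0 passed by limma, and 0 had an unadjusted p under 0.05. The part of these cell types in the values of Foxc1, Foxp1 and Foxp2 was not tested.

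The genes most like each changed forkhead gene over the 6 arrays were found by Pearson's r of log2 values among tested probe sets with a single symbol. Because the arrays fall into 2 groups, r here mainly follows the difference between groups, and it is given with no test. Foxc1 was most like Dach2 (r = 0.998) and Kcna5 (0.997). Foxp1 was most like Dach2 (0.998) and Patz1 (0.998), and Foxp2 was most like Celf2 (0.9998) and Sting1 (0.997). Dach2, a transcriptional cofactor, read 72.7 in wild-type and 207 in KO pools, a mean difference of 1.52. Celf2, an RNA-binding protein, read 318 and 553.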

How the data were processed

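The authors deposited 1 linear intensity per probe set for 6 arrays. The submitters' processing notes name GCOS 1.2, without its algorithm, scaling or filters, which are not given in the sources used. The deposited 2% trimmed means ran from 254 to 373, so each array was scaled to a common 309.2. Values below the 20th percentile (7.99) were set to it, log2 was taken, and 64 control probe sets and the lowest 40% by mean log2 were left out, leaving 27022. The groups were tested against each other by limma 3.58.1 (R 4.3.3) with lmFit and eBayes, allowing an intensity trend. Two-sided p-values were adjusted over all 27022 by the Benjamini-Hochberg method, with a threshold of 0.05. The procedure was tested on simulated data. Folds and log2 differences are KO against wild-type, and the floor shrinks those of dim probe sets. The number of arrays limits the precision.

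Symbols came from the platform annotation, where 34958 probe sets had 1 symbol, 932 several and 9211 none; only the first kind were named. RefSeq gave gene order and promoter sequences, but the array annotation names no build. The forkhead genes and all lists were chosen with earlier results of these data known. Named were every probe set of the 10 genes and up to 4 called genes per list by size (at least 2, by smallest p). Hey1 was named beyond the limit of 4, as the only fall of its list. For each tested gene of the 10 the 2 genes of most similar pattern were named, and genome neighbours. Foxo3, Foxl2, Foxm1, Ptch1, Gli1 and the markers named were added after their values were seen. Replicate numbers were checked for pairing through correlations of deviations from group means. These were -0.07, 0.04 and -0.05 for equal numbers and ran from -0.08 to 0.13 for unequal numbers. With 3 pools per group this check cannot exclude pairing, and no pairing was used in the main test. Alternatives changed the scaling, floor, filter, trend, array weights, replicate block, threshold and pools.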

Additional observations from a re-analysis of the deposited data

How the results depend on the processing

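Over 407 values of single forkhead probe sets under the alternatives, 383 kept their direction and side of the threshold, 17 lost their call, 1 gained a call and 6 turned sign. All 6 turns were of Foxc2, at -0.025 with quantile normalization, -0.021 with a common median, -0.0029 with array weights and -0.14 to 0.17 with a pool left out. The count of forkhead rises, 14, ran from 11 to 16, and from 13 with a pool left out to 14, except that it was 3 without the filter on dim probe sets. The calls over all tested probe sets (1264, with 742 higher and 522 lower) became 151, 107 and 44 without the filter and 541, 317 and 224 without the intensity trend. At a threshold of 0.1 they were 1939 in all and 1159 higher, and 267 were lower with values as deposited, which moved the median of all probe sets to 0.10. With a pool left out they ran from 721 to 1687, from 441 to 892 higher and from 271 to 795 lower. The 23 called genes of the 8 lists became 13 with values as deposited, 3 without the filter, 8 without the trend and 12 to 19 with a pool left out. With the replicate number as a block the counts were 1160, 14 and 19. Some counts of single lists were computed under alternatives chosen after seeing the data. The causes of these changes were not tested. The dim limit of 26.4 leaves Foxf2 unmeasured. Among the Foxp2 probe sets the floor changed only 1422014_at, which had 1 value under it and did not pass.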

Other observations

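Several forkhead genes that did not pass had closest patterns of their own. For Foxd1 the probe sets with the highest Pearson's r over the 6 arrays were those of Kdm6a, an X-linked histone demethylase (r = 0.995), and of Entr1 (0.995). Kdm6a read 150 in wild-type and 252 in KO pools on that probe set, and Xist also differed between the groups. For Foxf1, the gene with lower KO values, they were Nab1, a co-repressor of early growth response factors (0.995, at 58.4 and 34.7), and the histone chaperone gene Nap1l1 (0.995, at 7585 and 6662). For Foxp4 they were Ddit4l (0.999) and Prkab2 (0.995), for Foxd2 Tmed8 (0.996) and Zfp212 (0.995), for Foxo1 Dnase1l2 (0.994) and Col2a1 (0.992), and for Foxc2 Csnk2a2 (0.988) and Riok3 (0.982). Each value is the best of a search over all tested probe sets with 6 points, and no test was made.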
